A study of Mus musculus with 2 samples.

Results

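The mRNA of 10 uptake and surface receptors of Kupffer cells was followed through the sorted liver cells of 4 mice: Timd4, Mertk, Axl, Vsig4, Marco, Cd5l, Clec4f, Cd207, Clec1b and Folr2. The genes were chosen as a named list with earlier results of these data known, and all 10 were found among the 25909 genes of the count matrix. The mice were fed a normal diet (ND) or CDA-HFD, a high-fat diet without choline that leads to steatohepatitis, and each diet was given to 1 Egr2fl/fl mouse and 1 Lyz2Cre/+.Egr2fl/fl mouse. In the latter, Cre is expressed from 1 Lyz2 allele, so that Egr2 is lost in myeloid cells in general and not in macrophages alone. The CDA-HFD mice had been on the diet for 7 weeks, and the methods describe males put on it at an age of 6 to 12 weeks. Cells were sorted as CD45.2+CD11b+ and negative for CD90.2, B220, NK1.1 and SiglecF, then pooled into a single mRNA library in which only a DNA hashtag tells the mice apart. With 1 mouse for each combination of diet and genotype, no difference between mice could be tested, and every interval below is a 95% interval for counting error only.

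Kupffer cells are the resident macrophages of the liver sinusoids. They clear bacteria, aged blood cells, lipoproteins and dying cells through a set of surface receptors that recognise phosphatidylserine, complement fragments, polyanions or glycans. When resident Kupffer cells are lost, monocytes enter the niche and can acquire parts of this receptor set over time, with Timd4 known as one of the late genes.

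The matrix gave 15384 cells with at most 25% mitochondrial counts, 1723 and 1590 from the ND mice and 5885 and 6186 from the CDA-HFD mice, with a median of 13168 to 16459 counts per cell. Cell types were gated on marker lists that hold none of the 10 genes. The macrophage gate, on markers that include C1qa, C1qb, C1qc and Adgre1, took 888 ND Egr2fl/fl, 919 ND Lyz2Cre/+.Egr2fl/fl, 1261 CDA-HFD Egr2fl/fl and 1432 CDA-HFD Lyz2Cre/+.Egr2fl/fl cells. On CDA-HFD 193 and 224 cells lay within 0.05 of a limit of this gate, against 23 and 15 on ND, and cells in no gate made up 7.78% and 6.79% of the ND cells (134 and 108) and 21.1% and 20.3% of the CDA-HFD cells (1244 and 1253). The part of this difference in the levels below was not tested. Within the macrophage gate the median score of the Ly6Clo monocyte list was 0.44 to 0.45 on ND and 0.26 to 0.28 on CDA-HFD, that of the Ly6Chi monocyte list went the other way, from 0.115 and 0.101 on ND to 0.198 and 0.199 on CDA-HFD, and that of the dendritic cell list was 0 in all 4 mice. Egr2 itself stood at 9.81 CPM (counts of the gene per 1e6 counts of the gate) in ND and 56.0 CPM in CDA-HFD macrophages of Egr2fl/fl mice, and at 1.19 and 10.6 CPM in those of Lyz2Cre/+.Egr2fl/fl mice. The Lyz2 level of Lyz2Cre/+.Egr2fl/fl macrophages was 0.453 times that of Egr2fl/fl macrophages on ND and 0.524 times on CDA-HFD, so both genes went with the labels, although the part of Egr2 that was counted may lie outside the deleted part.

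Low values had been set to 0 for some genes before deposit, and 3 of the 10 receptors are among them. The lowest value above 0 in any cell was 5 for Vsig4, 7 for Cd5l and 8 for Clec4f, and 1 for the other 7 genes. A cell listed at 0 could therefore have held up to 4, 6 or 7 counts of these genes. If every macrophage listed at 0 on CDA-HFD had held that many, the Vsig4 level would have been at most 7.33% (Egr2fl/fl) and 8.68% (Lyz2Cre/+.Egr2fl/fl) of the recorded ND level, Clec4f at most 5.78% and 6.54%, and Cd5l at most 11.1% and 14.5%. These bounds lie far below the ND levels. Differences between groups that are both low are bounded only widely for these 3 genes, whose values on CDA-HFD are given as recorded. A value also has to be larger relative to the cell's total to be recorded in a shallow cell, so the recorded share of neutrophils (0 to 0.943%) gives no background for them.

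Clec4f and Cd207 lie side by side on chromosome 6, with no annotated gene in the 15.09 kb between them, and yet were at very different shares of their ND levels on CDA-HFD. The 250 bases before the annotated starts of this pair, of Timd4, which was the lowest of the 10 on CDA-HFD, and of Cd5l, which was recorded in 9.99% and 14.7% of macrophages there, are shown 5′ to 3′ on the gene's strand. They come from RefSeq (GRCm38.p6), in which all 10 genes had an entry and Folr2 had 2. The Timd4 window runs a few bases past the gene's annotated start at chr11:46810786. The windows are chr6:83656117-83656366 (Clec4f, minus strand), chr6:83677858-83678107 (Cd207, minus strand), chr11:46810549-46810798 (Timd4, plus strand) and chr3:87357631-87357880 (Cd5l, plus strand), and capitals mark the PU.1 core GAGGAA on either strand, PU.1 being the factor that specifies macrophages.
Clec4f: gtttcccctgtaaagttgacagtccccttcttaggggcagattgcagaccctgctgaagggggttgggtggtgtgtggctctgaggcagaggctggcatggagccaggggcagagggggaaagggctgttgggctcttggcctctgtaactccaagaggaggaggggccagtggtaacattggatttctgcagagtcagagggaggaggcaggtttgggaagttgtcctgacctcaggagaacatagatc
Cd207: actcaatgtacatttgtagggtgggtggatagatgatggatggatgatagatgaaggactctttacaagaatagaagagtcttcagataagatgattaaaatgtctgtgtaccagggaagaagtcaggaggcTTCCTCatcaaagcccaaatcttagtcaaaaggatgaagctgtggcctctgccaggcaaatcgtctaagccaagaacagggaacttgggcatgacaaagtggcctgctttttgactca
Timd4: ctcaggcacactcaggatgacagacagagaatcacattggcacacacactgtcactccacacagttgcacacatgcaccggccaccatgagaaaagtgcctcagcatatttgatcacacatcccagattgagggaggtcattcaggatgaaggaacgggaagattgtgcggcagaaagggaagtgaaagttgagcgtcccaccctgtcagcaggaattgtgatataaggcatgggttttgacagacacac
Cd5l: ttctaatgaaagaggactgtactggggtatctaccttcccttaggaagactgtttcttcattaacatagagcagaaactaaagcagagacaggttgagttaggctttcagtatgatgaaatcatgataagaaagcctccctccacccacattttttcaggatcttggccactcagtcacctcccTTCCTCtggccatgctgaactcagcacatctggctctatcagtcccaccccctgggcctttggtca
This core was found in 5 of the 11 windows of the 10 genes (Axl, Vsig4, Marco, Cd5l and Cd207) and in 23.3% of all 32851 RefSeq windows of this length. The EGR sites GCGTGGGCG and GCGGGGGCG were found in none of the 11, and either was present in 3.06% of all windows. These are matches of letters only. The Axl window lies partly, and 1 of the 2 Folr2 windows wholly, inside the annotated gene.

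In macrophages, 9 of the 10 receptors were at least 2-fold lower on CDA-HFD than on ND in both genotypes, and none was 2-fold higher. Among all genes with at least 50 counts, 12.1% (Egr2fl/fl) and 11.3% (Lyz2Cre/+.Egr2fl/fl) were lower by this measure, and 8.01% and 7.73% higher. Since the 10 genes were chosen with earlier results known, the count of 9 is a description and no independent evidence. The recorded level on CDA-HFD ran from 0.615% to 71.7% of that on ND. Timd4 was at less than 1%, Vsig4, Clec4f and Folr2 between 1% and 5%, Cd5l, Clec1b and Cd207 between 6.87% and 25.3%, and Mertk and Axl 40.5% or more. The Timd4 ratio was, however, 0.0106 as the mean over cells and 0.0124 with thinned cells in Egr2fl/fl mice, and 0.0102 in Lyz2Cre/+.Egr2fl/fl mice with macrophages taken from clusters. Marco alone was in different bands, at 2.00% in Egr2fl/fl and 16.5% in Lyz2Cre/+.Egr2fl/fl macrophages. The macrophage gate did not hold the same clusters on both diets. Of 20 clusters found without the 10 genes, cluster 3 held 78.3% and 79.7% of ND but 0.238% and 0.768% of CDA-HFD macrophages, while clusters 4 and 7 together held most of the latter, with 40.5% and 44.97% in cluster 4 and 27.4% and 24.6% in cluster 7. Clusters 1 and 2, where Ly6Chi monocytes were the most frequent gated class (69.8% and 47.9% of gated cells), held a further 12.8% and 9.78% (cluster 1) and 14.6% and 14.3% (cluster 2) of CDA-HFD macrophages, against 0 to 0.788% of ND macrophages. With each cluster given the most frequent class of its gated cells in place of the gates, the ratios over ND ran from 0.00565 (Timd4) to 0.696 (Axl) in Egr2fl/fl and from 0.0102 to 0.586 in Lyz2Cre/+.Egr2fl/fl mice. A level on CDA-HFD as a share of ND therefore compares gates and does not follow the same cells. The median log2 ratio was -4.75 and -3.24 over the 10 genes and -0.12 and -0.13 over all genes tested.

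**Figure D1:**
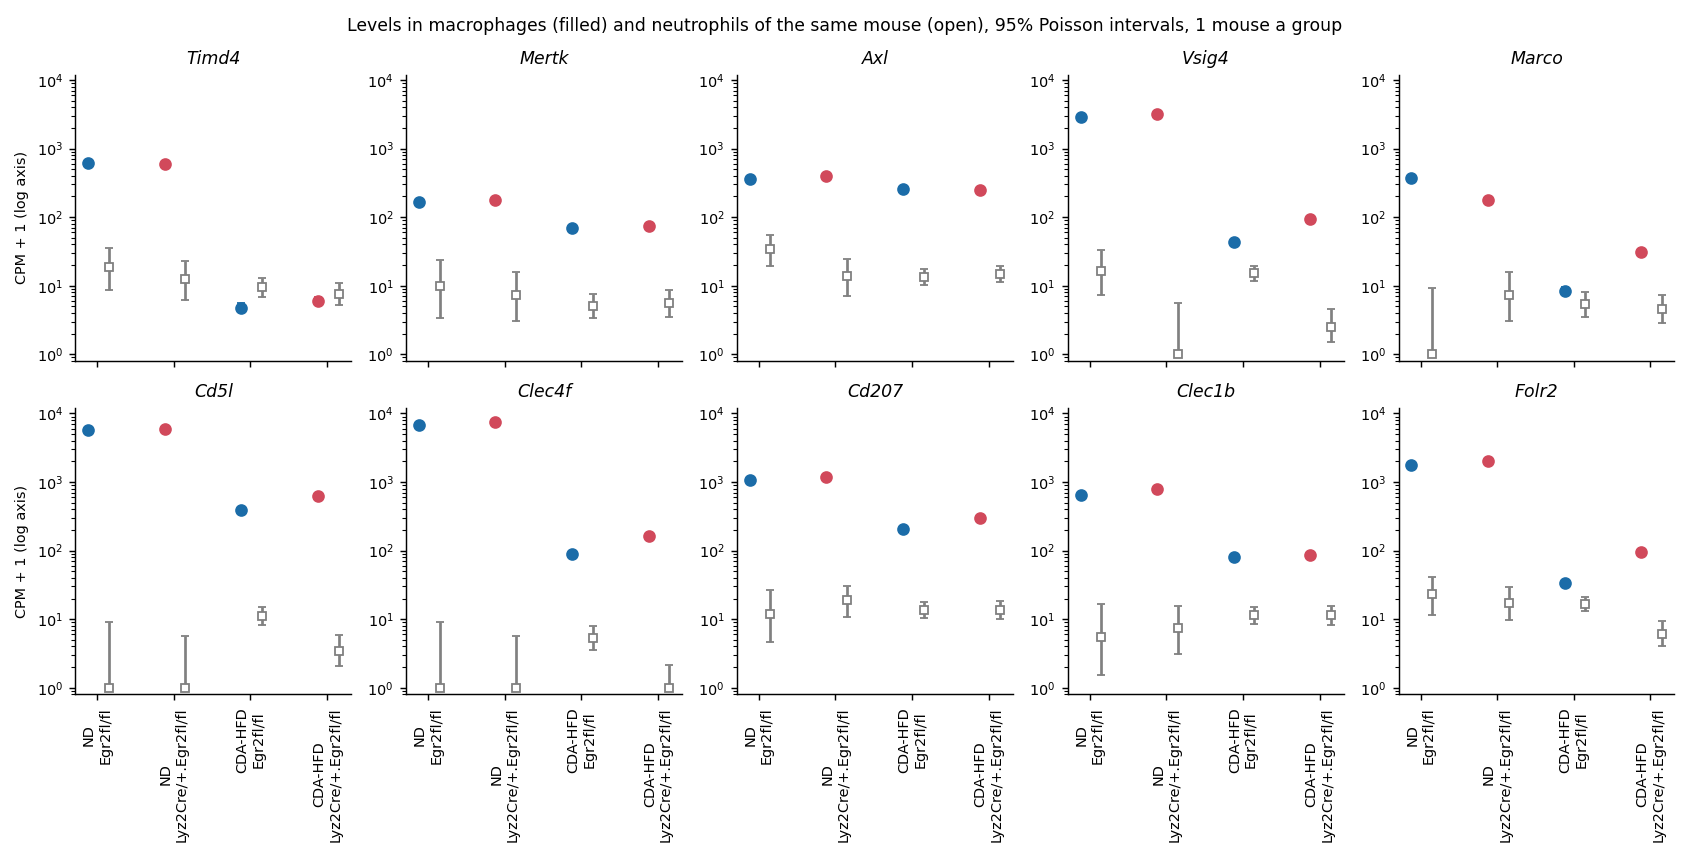
Levels of the 10 receptor genes in the macrophage gate (filled circles, blue for Egr2fl/fl and red for Lyz2Cre/+.Egr2fl/fl) and in neutrophils of the same mouse (open squares), as CPM + 1 on a log axis with 95% Poisson intervals, 1 mouse a group. On CDA-HFD the macrophage level of Timd4 (3.80 and 4.96 CPM) lay below that of neutrophils (8.47 and 6.69 CPM), whereas Mertk, Axl, Cd207 and Clec1b stood well above it.

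Receptors for dying cells are encoded by Timd4, Mertk and Axl. The first encodes TIM-4, which tethers cells that expose phosphatidylserine, and the other two encode receptor tyrosine kinases that bind phosphatidylserine through the bridging proteins Gas6 and protein S. Timd4 stood at 617 CPM in ND Egr2fl/fl, 603 CPM in ND Lyz2Cre/+.Egr2fl/fl, 3.80 CPM in CDA-HFD Egr2fl/fl and 4.96 CPM in CDA-HFD Lyz2Cre/+.Egr2fl/fl macrophages. Both ND mice were high and both CDA-HFD mice were at 0.615% (interval 0.504 to 0.742%) and 0.823% (0.695 to 0.967%) of them.

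The neutrophil gate, whose cells should lack these receptors, served as the background of RNA that is free in the suspension. It held 17.6 and 11.4 CPM of Timd4 on ND and 8.47 (5.83 to 11.9) and 6.69 (4.19 to 10.1) CPM on CDA-HFD, above CDA-HFD macrophages at 3.80 (3.12 to 4.58) and 4.96 (4.20 to 5.82) CPM, although the intervals of the Lyz2Cre/+.Egr2fl/fl mouse overlapped. Ly6Chi monocytes of the same mice, deeper than neutrophils, were at 2.13 (1.52 to 2.90) and 2.26 (1.68 to 2.98) CPM, below the macrophages. Whether Timd4 stood above background on CDA-HFD thus depends on the gate taken for it. A Timd4 count was present in 84.5% and 87.2% of ND macrophages, in 3.81% (48 cells) and 3.28% (47 cells) of CDA-HFD macrophages, and in 2.38 to 3.77% of neutrophils. Neutrophils had a median of 3800.5 to 4066 counts per cell and macrophages 18771 to 24146.5, and with every cell thinned to 3000 counts, which left out no cell, Timd4 was found in 1.02% and 0.770% of CDA-HFD macrophages, 1.86% and 1.77% of the neutrophils and 0.593% and 0.582% of the Ly6Chi monocytes of the same mice.

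Of the macrophages with a Timd4 count on CDA-HFD, most held a few counts and only 5 in each mouse held 5 or more. Those 5 cells carried 56 of 109 Timd4 counts in the Egr2fl/fl mouse and 101 of 149 in the Lyz2Cre/+.Egr2fl/fl mouse, where a single cell with 78 counts made up 52.3%. In the Lyz2Cre/+.Egr2fl/fl mouse all 5 also held Vsig4, Clec4f, Cd5l, Clec1b, Folr2, Mertk and Axl and 3 of 5 held Cd207 and Marco. In the Egr2fl/fl mouse 4 of 5 held Clec4f, Cd207 and Folr2 and 3 of 5 held Vsig4, Cd5l, Clec1b and Axl, while 2 held Mertk and 1 Marco. Among that mouse's macrophages without Timd4, 43.9% held Mertk and 87.2% Axl. A median of 92.9% and 94.5% of the hashtag counts of these cells was that of their own mouse, and 3 and 4 of the 5 had at least 90%.

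Mertk stood at 168 and 175 CPM in ND and at 67.9 and 74.3 CPM in CDA-HFD macrophages (Egr2fl/fl first, as below). This was 40.5% (38.3 to 42.9%) and 42.5% (40.3 to 44.8%) of the ND levels, and neutrophils of the CDA-HFD mice were at 4.11 and 4.56 CPM. On CDA-HFD a Mertk count was present in 43.9% and 46.9% of macrophages against 76.8% and 78.0% on ND, and in 0.576 to 2.83% of the neutrophils of the 4 mice. Thinned to 3000 counts, the macrophage shares were 15.2% and 16.8% on CDA-HFD and 34.7% and 35.9% on ND. The small endothelial gate held 176 and 150 CPM of Mertk on ND and 25.1 and 33.3 CPM on CDA-HFD, and endothelial markers in macrophages are given with Clec1b below.

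Axl was at the highest share of its ND level. Its levels were 357 and 396 CPM on ND and 256 and 246 CPM on CDA-HFD, or 71.7% (69.4 to 74.1%) and 62.1% (60.2 to 64.1%) of ND, and it was the only one of the 10 that was not 2-fold lower. A count was present in 92.1% and 93.3% of ND and in 87.1% and 85.1% of CDA-HFD macrophages, and in 3.11% and 2.81% of CDA-HFD neutrophils. Thinned to 3000 counts, the macrophage shares were 58.6% and 62.4% on ND and 47.7% and 46.2% on CDA-HFD. Axl was also the broadest, with 58.2 and 78.3 CPM in Ly6Chi monocytes, 128 and 103 CPM in Ly6Clo monocytes and 63.8 and 54.6 CPM in dendritic cells on CDA-HFD, against 12.6 and 13.98 CPM in neutrophils. In Ly6Clo monocytes the ND levels were 20.6 and 24.6 CPM, so this gate had more Axl on CDA-HFD while the macrophages had less.

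**Figure D2:**
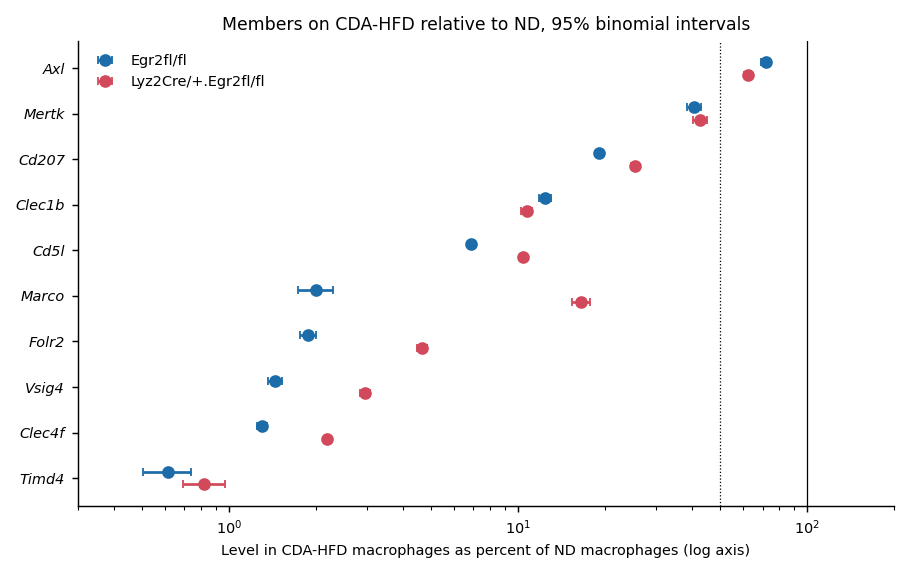
Level of each receptor gene in CDA-HFD macrophages as a percent of ND macrophages of the same genotype (log axis), with 95% binomial intervals; the solid line marks 100% and the dotted line 50%. The genes run from Timd4 (0.615% and 0.823%) at the bottom to Axl (71.7% and 62.1%) at the top, and the genotypes lie furthest apart for Marco (2.00% and 16.5%).

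Vsig4, Marco and Cd5l cover the capture of opsonised, charged and lipid particles. Vsig4 encodes the complement receptor CRIg, which catches C3-coated bacteria from the blood. It stood at 2903 and 3186 CPM on ND and at 42.0 and 94.3 CPM on CDA-HFD, or 1.45% (1.36 to 1.53%) and 2.96% (2.85 to 3.07%) of ND. A recorded count was present in 85.8% and 89.7% of ND macrophages but in only 2.78% (35 cells) and 4.33% (62 cells) on CDA-HFD. Of the recorded CDA-HFD counts, 75.4% and 51.7% came from the top 1% of cells.

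Marco encodes a class A scavenger receptor for bacteria and other polyanions. It was the least even gene, at 374 and 179 CPM on ND and at 7.49 and 29.6 CPM on CDA-HFD, with neutrophils at 4.36 and 3.65 CPM in the latter mice. On ND it was found in 40.2% and 26.1% of macrophages and on CDA-HFD in 2.62% and 2.79%, against 1.04% and 1.12% of neutrophils. Thinned to 3000 counts, the CDA-HFD shares were 0.698% and 1.15% in macrophages and 0.794% and 0.831% in neutrophils. The thinned shares of Ly6Chi monocytes were 0.246% and 0.208%. What remained sat in a few cells, since the 3 macrophages with the most Marco held 70.2% and 58.6% of all Marco counts on CDA-HFD and 11.9% and 15.8% on ND.

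Cd5l encodes AIM, a scavenger receptor-like protein that macrophages secrete, and is one of the most specific Kupffer cell transcripts. Its levels were 5642 and 5904 CPM on ND and 388 and 614 CPM on CDA-HFD, or 6.87% (6.74 to 7.005%) and 10.4% (10.2 to 10.6%). It was recorded in 9.99% (126 cells) and 14.7% (210 cells) of CDA-HFD macrophages against 86.9% and 90.1% on ND. The median in cells with a recorded count was 2423 and 2358 CPM against 5965 and 5996 CPM. Since values below 7 were set to 0, these figures cannot tell fewer cells from a lower level per cell.

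The C-type lectins split. Clec4f, a glycan receptor used as the defining gene of mouse Kupffer cells, stood at 6700 and 7377 CPM on ND and 87.3 and 161 CPM on CDA-HFD, or 1.30% (1.25 to 1.36%) and 2.19% (2.13 to 2.25%). It was recorded in 31 (2.46%) and 54 (3.77%) CDA-HFD macrophages, with 34.0% and 17.8% of its recorded counts in 3 cells. The neighbour Cd207, which encodes langerin, a lectin better known from Langerhans cells, stood at 1070 and 1191 CPM on ND and 204 and 301 CPM on CDA-HFD, or 19.1% (18.5 to 19.6%) and 25.3% (24.7 to 25.9%).

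Cd207 was found in 13.01% (164 cells) and 17.0% (244 cells) of CDA-HFD macrophages, 75.6% and 77.8% on ND, and 2.53% and 2.81% of CDA-HFD neutrophils. Thinned shares were 7.72% and 10.75% in CDA-HFD macrophages and 2.22% and 2.20% in neutrophils. Of the cells with Cd207, 14.02% and 15.98% had a recorded Clec4f count, against 0.729% and 1.26% of those without Cd207. Clec4f was recorded in only 31 and 54 cells, so most cells with Cd207 had to be listed at 0 for it. Of the cells with recorded Clec4f, 74.2% and 72.2% held Cd207, against 11.5% and 14.9% of the other macrophages.

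Clec1b encodes CLEC-2, a receptor for podoplanin. It stood at 652 and 797 CPM on ND and 80.8 and 85.3 CPM on CDA-HFD, or 12.4% (11.9 to 12.95%) and 10.7% (10.3 to 11.2%), in 20.5% and 19.1% of CDA-HFD macrophages and 2.53% and 2.95% of neutrophils. It was also high in the small endothelial gate, at 299, 341, 712 and 393 CPM in 19, 40, 12 and 50 cells (ND Egr2fl/fl, ND Lyz2Cre/+.Egr2fl/fl, CDA-HFD Egr2fl/fl, CDA-HFD Lyz2Cre/+.Egr2fl/fl). The 7 endothelial markers summed to 116 and 127 CPM in ND macrophages and 17.8 and 25.1 CPM in CDA-HFD macrophages, none at 0, against 10269 CPM in the endothelial gate, and their part in the fall of Clec1b was not tested.

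Folr2 encodes folate receptor beta, a marker of resident macrophages in many tissues. It stood at 1767 and 2033 CPM on ND and 33.2 and 94.6 CPM on CDA-HFD, or 1.88% (1.76 to 2.00%) and 4.65% (4.48 to 4.83%). A count was present in 16.7% (211 cells) and 22.1% (317 cells) of CDA-HFD macrophages at a median of 72.0 and 166 CPM where present, against 1778 and 1963 CPM on ND. On CDA-HFD 16.4% and 9.08% of its counts were in 3 cells. Neutrophils of the CDA-HFD mice had 15.7 and 5.17 CPM, with a count in 3.34% and 1.54% of cells.

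**Figure D3:**
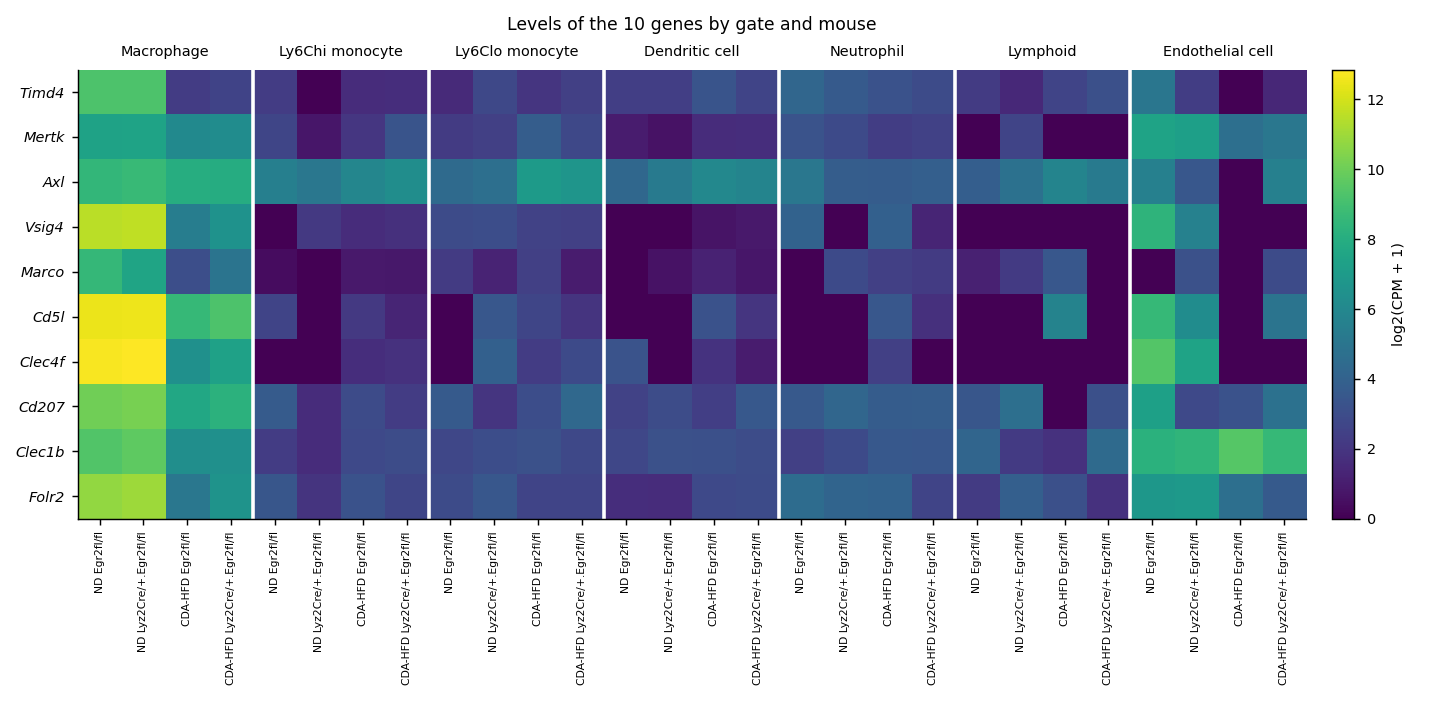
Levels of the 10 receptor genes in 7 gates and 4 mice, as log2(CPM + 1) on the colour scale. On ND most genes are highest in macrophages, Axl is also seen in monocytes and dendritic cells, and the endothelial gate has Mertk (176 and 150 CPM on ND) and Clec1b (299 to 712 CPM).

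To see which receptors CDA-HFD macrophages held above monocytes, macrophages were set against Ly6Chi monocytes of the same mouse. On recorded counts 9 of 10 receptors were at least 2-fold higher in macrophages in the Egr2fl/fl mouse and 10 of 10 in the Lyz2Cre/+.Egr2fl/fl mouse, where 10.2% and 9.43% of all genes tested were higher, and none was 2-fold lower, against 6.09% and 5.89%. Cd207 was 30.4-fold (25.5 to 36.6) and 78.5-fold (63.4 to 98.3) higher in macrophages, from 6.71 and 3.84 CPM in the monocytes. Mertk was 21.6-fold (16.7 to 28.5) and 8.15-fold (7.05 to 9.46) higher, Clec1b 13.3-fold (11.03 to 16.2) and 12.4-fold (10.6 to 14.7), and Axl 4.41-fold (4.13 to 4.70) and 3.14-fold (2.98 to 3.31). Further apart between the mice were Folr2, at 3.89-fold (3.29 to 4.63) and 17.6-fold (14.7 to 21.3), and Marco. Marco was 8.79-fold (5.29 to 15.6) and 38.5-fold (23.9 to 66.4) higher, from only 16 and 17 counts in the monocytes. With macrophages and monocytes taken from clusters in place of gates, the ratios were 5.98 and 4.83 for Mertk, 1.88 and 1.80 for Axl, and 30.2 for Cd207 in the Lyz2Cre/+.Egr2fl/fl mouse. Over all alternatives the ratios ran from 26.4 to 51.9 and from 30.2 to 92.7 for Cd207, and from 7.88 to 14.4 and from 7.60 to 14.5 for Clec1b.

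Timd4 differed least, at 1.78-fold (1.23 to 2.63) and 2.20-fold (1.59 to 3.09), with 2.13 and 2.26 CPM in the monocytes. Without the macrophages that scored high for other Kupffer cell genes (below), these ratios were 1.03 and 0.635, and with cells of at least 90% own hashtag they were 2.01 and 1.10. The high-scoring cells held 44.0% and 72.5% of the macrophages' Timd4 counts, so leaving them out was bound to lower the ratio. In the Egr2fl/fl mouse the ratio was 2.84 as the mean over cells and 3.36 with thinned cells, and in the Lyz2Cre/+.Egr2fl/fl mouse 1.81 and 1.14. Cd5l was 112-fold and 400-fold, Clec4f 39.0-fold and 61.7-fold and Vsig4 20.2-fold and 38.0-fold higher on recorded counts. Over all alternatives these ratios ran from 67.6 to 667 and from 90.7 to 609.8 for Cd5l, from 8.67 to 135 and from 5.55 to 61.8 for Clec4f, and from 6.20 to 25.6 and from 15.2 to 63.3 for Vsig4. The lowest values came without the high-scoring macrophages, whose removal was bound to lower these ratios. The exception was Cd5l in the Lyz2Cre/+.Egr2fl/fl mouse, where clusters in place of gates gave the lowest. The values set to 0 could, however, amount to up to 302 and 297 CPM of Vsig4, 453 and 444 CPM of Cd5l and 528 and 518 CPM of Clec4f in the monocytes, more than the recorded macrophage levels in all cases but Cd5l in the Lyz2Cre/+.Egr2fl/fl mouse (614 CPM). The direction holds in that case alone, at no less than 614 against at most 444 CPM. For the other ratios of these 3 genes the bounds allow either direction, and a 2-fold difference is assured in none. Among the 7 other genes 6 and 7 were at least 2-fold higher.

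The receptors were then read against 14 other Kupffer cell genes (Fcna, C6, Cdh5, Slc40a1, Il18bp, Hpgd, Cd163, Kcna2, Ptgs1, Slc16a9, Paqr9, Fabp7, Pcolce2 and Vcam1). Of these, 13 were at least 2-fold lower in CDA-HFD macrophages of the Egr2fl/fl mouse and 14 in the Lyz2Cre/+.Egr2fl/fl mouse, with median log2 ratios of -5.13 and -4.60. The highest ratios were those of Vcam1 (0.709 and 0.463 times ND), Fabp7 (0.289 and 0.140) and Ptgs1 (0.194 and 0.165), and the lowest were C6 (0.00388) in the Egr2fl/fl and Pcolce2 (0.00934) in the Lyz2Cre/+.Egr2fl/fl mouse. The mean of the scaled values of the 14 genes gave each macrophage a score, which was cut into ranges below 0.1 (low), from 0.1 to 0.3 (middle) and from 0.3 (high). These are stretches of a continuous score and not cell types, and 41, 23, 176 and 207 macrophages of the 4 mice lay within 0.02 of a limit.

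On ND 85.5% and 89.6% of macrophages were in the high range. On CDA-HFD 2.22% (28 cells) and 3.70% (53 cells) were, with 18.2% (229 cells) and 19.8% (284 cells) in the middle range and 79.6% and 76.5% in the low range. The 28 and 53 cells carried most of what was recorded of some receptors and little of others. They held 78.5% and 91.4% of the Clec4f, 70.3% and 61.9% of the Vsig4 and 52.6% and 85.9% of the Marco counts of CDA-HFD macrophages, and 37.1% and 32.4% of the Folr2, but 16.1% and 13.3% of the Cd207, 7.64% and 10.98% of the Mertk and 3.33% and 5.92% of the Axl counts. Of the Timd4 counts they held 44.0% and 72.5%, of the Cd5l 41.5% and 43.7% and of the Clec1b 32.1% and 41.8%. Without them the CDA-HFD over ND ratio was 0.00289 and 0.00197 for Clec4f, 0.00444 and 0.0119 for Vsig4, 0.00355 and 0.00238 for Timd4, 0.00981 and 0.0244 for Marco and 0.0415 and 0.0615 for Cd5l. Removing the cells that scored highest on the CDA-HFD side only was bound to lower these ratios.

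Set against ND macrophages of the high range, the high range on CDA-HFD had like levels of some receptors and lower levels of others. Mertk reached 91.9% (77.4 to 108%) and 94.0% (82.3 to 107%) of ND, Clec1b 115% (107 to 124%) and 88.7% (83.3 to 94.4%), Cd207 92.7% (86.8 to 98.97%) and 73.7% (69.4 to 78.1%) and Cd5l 82.0% (79.6 to 84.5%) and 89.2% (87.2 to 91.2%). Clec4f reached 29.5% (28.2 to 30.8%) and 39.3% (38.2 to 40.5%), Vsig4 29.2% (27.3 to 31.3%) and 36.0% (34.3 to 37.7%), and Folr2 20.05% (18.0 to 22.3%) and 29.7% (27.8 to 31.7%). Timd4 was lowest at 7.83% (5.77 to 10.4%) and 11.7% (9.61 to 14.2%), with a count in 5 of 28 and 10 of 53 cells. A single cell held 29 of the 48 Timd4 counts in the Egr2fl/fl mouse and 78 of the 108 in the Lyz2Cre/+.Egr2fl/fl mouse. Both Timd4 levels therefore rest largely on that cell and would be lower without it. Marco was at 30.3% (24.95 to 36.5%) in the Egr2fl/fl mouse and at 278% (257 to 300.4%) in the Lyz2Cre/+.Egr2fl/fl mouse, with a count in 2 and 13 cells.

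The median own-hashtag share was 94.8% and 94.6% in the high range and 94.4% and 94.97% in the low range. With cells of at least 90% own hashtag alone (20 and 43 cells), Timd4 was at 9.03% and 4.03%, Clec4f at 23.5% and 36.5% and Cd5l at 82.2% and 85.7% of ND. The part of cells given to the wrong mouse in these levels was not tested.

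In the middle range the recorded levels lay further apart. Cd207 was at 54.8% and 70.2%, Mertk at 61.0% and 60.9%, Clec1b at 29.4% and 21.6% and Cd5l at 15.7% and 21.2% of the ND high range, whereas Folr2 was at 2.44% and 5.82%, Vsig4 at 1.48% and 4.17%, Clec4f at 1.06% and 0.646% and Timd4 at 0.604% and 0.224%. On ND, Cd207 stood at 337, 1057 and 1115 CPM in the low, middle and high range of the Egr2fl/fl mouse. In the ND Lyz2Cre/+.Egr2fl/fl mouse it was at 1407, 2440 and 1133 CPM, from 32, 64 and 823 cells. Of the cells with recorded Cd5l on CDA-HFD, 77.8% and 69.5% also had Clec1b, against 14.2% and 10.4% of the cells without it. Recorded Clec4f was present in 19.0% and 23.8% of the cells with recorded Cd5l, against 0.617% and 0.327% of the others. Clec4f was recorded in 31 and 54 cells in all, of which 24 and 50 had recorded Cd5l. In the low range, which held over 3 in 4 CDA-HFD macrophages, Axl was at 65.7% and 57.6% and Mertk at 29.4% and 31.1%, while Cd207 was at 4.84% and 9.34% and the other 7 genes were under 3%.

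**Figure D4:**
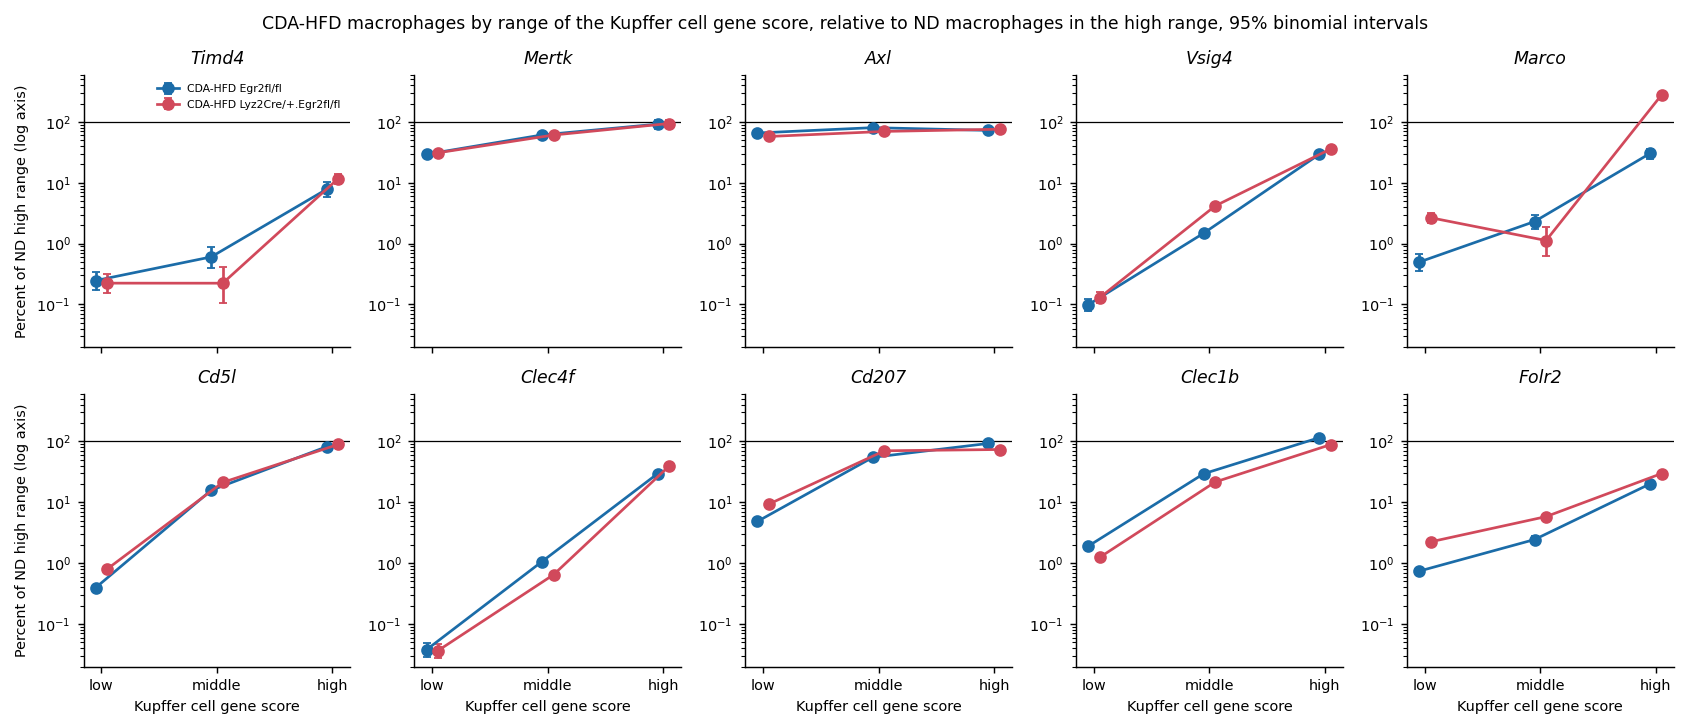
Level of each receptor gene in CDA-HFD macrophages of the low, middle and high range of the Kupffer cell gene score, as a percent of ND macrophages of the high range of the same genotype (log axis), with 95% binomial intervals (blue, Egr2fl/fl; red, Lyz2Cre/+.Egr2fl/fl; line at 100%). Axl is nearly flat, Cd207, Cd5l, Clec1b and Mertk climb to 73.7% or more in the high range, and Timd4 ends at 7.83% and 11.7%. In the high range 29 of 48 and 78 of 108 Timd4 counts were in a single cell.

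CDA-HFD macrophages were also divided at the median, over both mice, of the score of 10 genes of lipid-associated macrophages (Trem2, Gpnmb, Spp1, Fabp5, Cd9, Cd63, Lpl, Itgax, Clec4e and F10). Recorded Clec4f in the upper part was 0.131 and 0.0376 times that of the lower part, Timd4 0.138 and 0.146 times and Vsig4 0.346 and 0.262 times. Cd207 was 0.839 (0.796 to 0.885) and 1.07 (1.02 to 1.11) times, Mertk 1.21 and 0.825 times and Axl 0.893 and 0.800 times. The upper part was deeper, at a median of 24716.5 and 22481 counts per cell against 17078 and 16486, and the part of depth in these ratios was not tested.

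Genotype was compared on each diet within the macrophage gate. On ND 1 of 10 receptors differed at least 2-fold, where 2.46% of all genes tested did, and on CDA-HFD 3 of 10, where 2.27% did. On ND that gene was Marco, at 0.479 times (0.460 to 0.498) in Lyz2Cre/+.Egr2fl/fl relative to Egr2fl/fl macrophages, and the other 9 genes lay between 0.976 and 1.22 times.

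On CDA-HFD Marco was 3.95 times (3.40 to 4.60), Folr2 2.85 times (2.65 to 3.07) and Vsig4 2.25 times (2.10 to 2.41) as high in the Lyz2Cre/+.Egr2fl/fl mouse, followed by Clec4f (1.85), Cd5l (1.58) and Cd207 (1.47). Mertk, Axl, Clec1b and Timd4 were between 0.960 and 1.31 times, and over all alternatives the Timd4 ratio ran from 0.484 to 1.77. Without the high range these ratios were 3.12 for Folr2, 2.94 for Vsig4, 1.55 for both Cd5l and Cd207, 1.19 for Marco and 0.750 for Clec4f. Clec4f turned to the other direction, with 78.5% and 91.4% of its recorded counts left out in 28 and 53 cells (Egr2fl/fl first). Folr2 and Vsig4 stayed above 2-fold. For Vsig4 this came from the middle range, at 2.99 times with 25 against 13 cells holding a count, since it was 1.40 times in the low range (95 against 68 counts) and 1.31 times in the high range. The 1.19 for Marco joined opposite differences, at 2.50 times (1.75 to 3.64; 110 against 44 counts) in the low range and 0.228 times (0.120 to 0.407; 15 against 58 counts) in the middle range. The values set to 0 could lift Vsig4 on CDA-HFD to up to 213 and 277 CPM, Clec4f to 387 and 482 CPM and Cd5l to 625 and 858 CPM. With the recorded levels as lower limits, these bounds allow either direction between the genotypes for all 3 genes. Their genotype ratios, the 2-fold call of Vsig4 and the direction of Clec4f among them, hold for recorded counts only. With 1 mouse a group, genotype cannot be told apart from any other difference between the mice, and the intervals treat counts as independent although the counts of 1 cell are not.

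**Figure D5:**
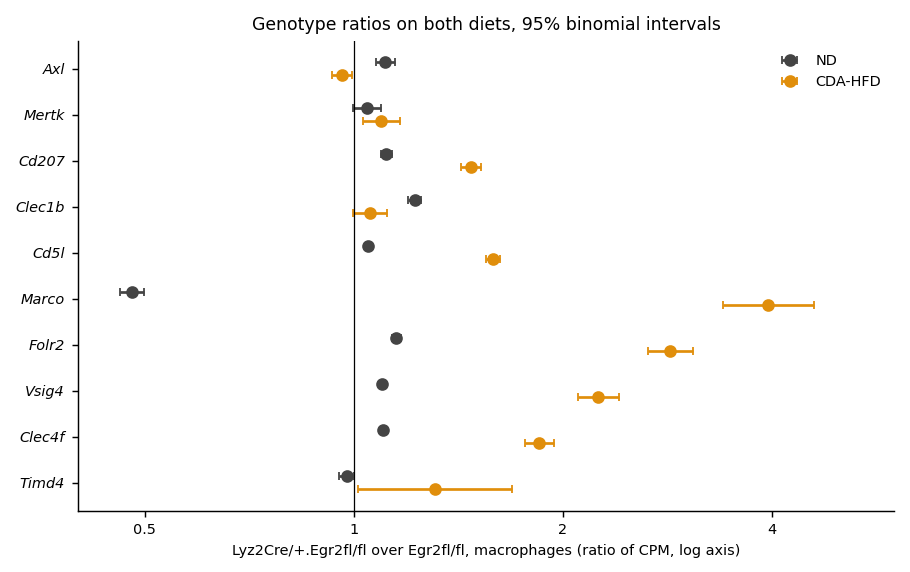
Ratio of the macrophage level in Lyz2Cre/+.Egr2fl/fl over Egr2fl/fl mice for each receptor gene on ND (grey) and CDA-HFD (orange), on a log axis with 95% binomial intervals, 1 mouse a group. On ND all genes but Marco (0.479) lie between 0.976 and 1.22, and on CDA-HFD Marco (3.95), Folr2 (2.85) and Vsig4 (2.25) lie above 2.

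Ligands and other uptake receptors moved in both directions. Of 18 such genes 17 had enough counts in each diet comparison, Tyro3, the third kinase of the Mertk and Axl family, being near 0 in all macrophages. In CDA-HFD macrophages 6 (Egr2fl/fl) and 7 (Lyz2Cre/+.Egr2fl/fl) were at least 2-fold lower and 3 were 2-fold higher in both genotypes, with a median log2 ratio of -0.41 and -0.43. The 3 higher genes were Cd36, a fatty acid and oxidised lipid receptor (4.95 and 4.62 times), Stab1, a scavenger receptor (2.63 and 2.34 times), and Mfge8, a bridging protein for phosphatidylserine (25.6 times, 11.6 to 70.5, and 12.7 times, 6.77 to 27.0, from 0.287 and 0.497 CPM). Mfge8 was counted only 6 and 10 times in ND macrophages. On CDA-HFD it stood at 7.35 and 6.32 CPM in macrophages and at 6.28 and 6.82 CPM in Ly6Chi monocytes of the same mice. Relative to these monocytes, Cd36 was 11.3 and 6.52 times and Stab1 4.21 and 4.03 times as high in macrophages.

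The lower genes included Cd163, the haemoglobin-haptoglobin receptor, Mrc1, the mannose receptor (0.170 and 0.182 times), and Pros1, which encodes protein S (0.329 and 0.397 times). Gas6 stood at 9.04 and 12.8 CPM on ND and 5.36 and 9.55 CPM on CDA-HFD. Msr1 (0.753 and 0.615), Lrp1 (0.835 and 0.744), Itgb5 (1.04 and 0.992) and Cd68 (1.11 and 0.946) stayed within 2-fold, as did Axl.

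The genes whose levels ran most like those of 4 of the receptors were sought over 22 combinations of gate and mouse with at least 50 cells, which share 1 library, among 11841 genes with at least 500 counts. Timd4 ran most like C6 (Pearson r of log2(CPM + 1) 0.937), Hba-a2 (0.919) and Hba-a1 (0.918), although both globins have no value above 0 below 197. Clec4f ran most like Slc16a9 (0.933), Oplah (0.931) and Fcna (0.929), and Cd207 like Ncoa4 (0.943), Pmp22 (0.931) and Folr2 (0.916). For Axl these were P2rx4 (0.939), Adap2 (0.916) and Lgmn (0.913), which stood at 109, 102 and 1174 CPM in CDA-HFD and at 136, 142 and 1689 CPM in ND macrophages of Egr2fl/fl mice.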

How the data were processed

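Sorted liver cells of 4 mice were pooled for scRNA-seq (BD Rhapsody, TAS-Seq). Per the methods, the authors trimmed, filtered and mapped the reads to the GRCm38 transcriptome and assigned barcodes to mice by hashtag; Seurat 4.1.1 and R 4.2.1 are named in the submitters' processing notes. The authors deposited raw counts of each gene and of each hashtag for every barcode, with no normalization. The sources used here do not give whether reads or molecules were counted. Low values of 34 genes had been set to 0 (no value from 1 to 4), by a step not named in the methods text.

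The 1392 of 16786 barcodes that the authors named doublets were left out, no further doublet caller was run, and doublets within a mouse remain. All 15394 other barcodes are in the hashtag table, and 15370 have their own hashtag as the highest; 7 hashtag columns of no mouse were not used. Each marker's ln(1 + counts per 10000) was divided by its 99th percentile over cells and limited to 1. A cell was gated to a class when the mean of its 3 highest markers was at least 0.4 and exceeded the next class by 0.1. The Kupffer cell and lipid-associated scores are the mean of all scaled genes of their list. Counts were summed by gate and mouse, given as CPM with exact Poisson intervals, and compared as ratios with exact binomial (Clopper-Pearson) intervals, with 2-fold calls among genes of at least 50 counts. A group at 0 was set to 3 counts for a ratio. Levels were compared within a gene, since the 3' library does not scale with length. The sums were tested on simulated data. Alternatives are listed in the closing section; TMM factors came from edgeR 4.0.16, and clusters from Leiden (leidenalg 0.10.2) on 57 components. The named genes were all 10 receptors, fixed lists of other genes and the 3 genes most like 4 of the receptors. The receptors and lists were chosen with earlier results of these data known.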

Additional observations from a re-analysis of the deposited data

Results flagged for a closer look

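Marco and Axl had genotype ratios in opposite directions on the 2 diets, with intervals that lay on opposite sides of 1. For Marco the level of Lyz2Cre/+.Egr2fl/fl over Egr2fl/fl macrophages was 0.479 on ND and 3.95 on CDA-HFD, and for Axl it was 1.11 on ND and 0.960 on CDA-HFD. The difference between the diets was not tested, because there was 1 mouse a group. The Marco ratio on CDA-HFD was 1.19 without the macrophages that scored high for other Kupffer cell genes, where it was 2.50 in the low and 0.228 in the middle range of that score.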

How the results depend on the processing

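Every count of receptors past 2-fold was recomputed with TMM scaling, the mean over cells of CPM, no filter on low counts, at most 10% mitochondrial counts, at least 90% own hashtag, cells thinned to 3000 counts, stricter gates (0.5 and 0.2), 20 clusters found without the receptor genes, without CDA-HFD cells holding a Timd4 count, and, chosen after seeing the data, without CDA-HFD macrophages in the high range. The 9 genes lower on CDA-HFD and the 0 higher held in number under each of these in both genotypes. The last 2 add nothing to this, since they remove CDA-HFD cells chosen for a Timd4 count or a high score. Counts against monocytes were 8 to 10 and 9 to 10, and the 3 genotype differences on CDA-HFD ranged from 2 to 4. The 1 gene that differed between genotypes on ND became 0 with thinned cells, where the Marco ratio was 0.512. Among 580 single ratios 347 stayed within their main interval. In all, 10 crossed 1. These were Clec4f (0.750) and Clec1b (0.920) between genotypes on CDA-HFD without the high range, and 8 ratios of Timd4, which ran down to 0.484 between genotypes and, without cells holding a Timd4 count, to 0.668 over Egr2fl/fl monocytes. Over Lyz2Cre/+.Egr2fl/fl monocytes Timd4 was 0.635 without the high range, which takes cells from the macrophages alone, and 0.752 without cells holding a Timd4 count. Without those cells both groups are at 0 and the ratio of their floors only reflects the totals. TMM raised all CDA-HFD over ND log2 ratios by 0.11 and 0.12. No paired analysis was possible because each group is 1 mouse. Depth limits shares of cells with a count, most of all in neutrophils.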
